A study of Mus musculus with 28 samples.

Results

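The respiratory chain genes described here are the rows of a mouse gene expression table that carry the symbols of subunits of complexes I to IV and of ATP synthase (complex V). They were chosen by symbol alone. The patterns Nduf, Sdh, Uqcr, Cox4 to Cox8 and Atp5 gave 88 nuclear genes, and symbols that start with mt-Nd, mt-Co, mt-Cytb or mt-Atp gave 8 genes of the mitochondrial genome, together 96 of 14617 genes. Of these, 85 nuclear and 7 mitochondrial genes passed the filter on low counts. Atp5k-ps2, Uqcrh-ps1 and Uqcrh-ps2 did not, and neither did mt-Co3, which had 44 UMIs in a single library and 0 in the other 27. By symbol prefix, the nuclear genes were counted as 40 of complex I, 4 of complex II, 10 of complex III, 16 of complex IV and 18 of complex V. The prefix alone decided, also for Ndufa4, which is counted here with complex I, so counts and medians by complex follow symbols. These counts include 7 symbols that end in -ps, -ps1 or -ps2, the endings used for pseudogenes. Of those, 4 were tested, namely Cox5b-ps, Ndufa12-ps, Ndufb1-ps and Ndufs5-ps. Ndufb1-ps is typed in GENCODE M21 as a bidirectional promoter lncRNA and not as a pseudogene, and its promoter window below is that of Ndufb1. The mitochondrial genes were mt-Nd1, mt-Nd2, mt-Nd4, mt-Nd5 and mt-Nd6 of complex I, mt-Cytb of complex III, and mt-Co1 and mt-Co3 of complex IV. No mt-Atp, mt-Co2, mt-Nd3 or mt-Nd4l row was among them. Sums over this class are therefore partial and not totals of all mitochondrially encoded subunits.

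The cells were macrophages sorted from the brains of Cx3cr1 gfp/+ mice that had been lethally irradiated and given hDNMT3A fl/fl bone marrow, with Vav-Cre (mutant) or without it (control). Vav-Cre recombines in blood-forming cells, and the control marrow carried the floxed human gene too. Which human mutation the allele holds is not stated in the labels. The brains were taken 16 weeks after transplantation, with actinomycin D in the preparation. GFP marked the host's macrophages and its absence the donor's, and both were sorted from the parenchyma, where the labels call them microglia, and from the leptomeninges, with at most 100000 cells per sample. MARS-seq counted transcript 3′ ends by unique molecular identifiers (UMIs) in 28 libraries, 4 for each genotype in every population except host leptomeningeal cells, which had 2 for each genotype. That libraries came from separate animals is not stated in the labels, and p-values therefore measure only the spread among these libraries, which may be technical.

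The respiratory chain passes electrons from NADH (complex I) and succinate (complex II) through complex III to oxygen at complex IV, pumps protons on the way, and lets them return through ATP synthase to make ATP. Mitochondrial DNA encodes core subunits of every complex but complex II, while the nucleus encodes the rest, and the transcripts of the 2 classes are made by different RNA polymerases. In macrophages, the balance of oxidative phosphorylation and glycolysis is known to shift with activation state.

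Totals ran from 479077 to 3066506 UMIs per library. Shares, CPM and the overlap of libraries rest on these plain totals, while log2 folds and calls rest on totals rescaled by edgeR (TMM). A log2 fold can therefore differ from the ratio of mean CPM, and near 0 also in sign. A level is given as CPM, the usual depth-scaled count, in which a gene's UMIs are taken relative to all UMIs of its library, and 3 UMIs, the limit that a count of 0 allows, equalled 0.978 to 6.26 CPM, for counting error only. Microglial markers took 1.93% to 2.44% of UMIs in host microglia, 0.575% to 0.822% in donor microglia and 0.168% to 0.290% in donor leptomeningeal cells. They took 0.5168% to 0.8385% in host leptomeningeal cells, which overlapped donor microglia. Border macrophage markers took 0.830% to 1.18% in host leptomeningeal cells and at most 0.00907% in host microglia. In donor cells they took 0.2476% to 0.467% in the leptomeninges and 0.05184% to 0.0773% in microglia. Donor microglia also held transcripts of other brain cells, with 1.59% to 3.33% of UMIs from 3 choroid plexus genes against at most 0.0173% in host microglia, and donor leptomeningeal cells held 3.63% to 9.74% of neutrophil transcripts. The mouse Dnmt3a row stood at 70.8 ± 16.9 CPM in control and 67.5 ± 7.41 CPM in mutant donor microglia (SD, n = 4 each). These counts do not separate the human allele, so that row does not check the labels.

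Promoter sequences are shown because many nuclear subunit genes share a start-proximal site type, that of nuclear respiratory factor 1 (NRF1), an activator of genes for mitochondria. Promoter windows (250 bases before to 50 after the start, RefSeq, GRCm38.p6) were found for 69 of the 88 nuclear genes. The NRF1 letters (GCGCA, any base, then GCGC), searched on both strands, were in 16 of the 69 windows (23.2%), in 4.78% of all 27025 windows of that length and in 10.6% of the 9467 windows of genes tested. The ETS letters CCGGAAG were in 16 windows (23.2%, against 9.12% of all and 18.7% of genes tested), and the YY1 letters AAGATGGCG in 6 (8.7%, against 1.49% and 3.31%). The estrogen-related receptor letters CAAGGTCA were in 4 windows (5.8%, against 1.53% and 1.1%). The stretches below, 60 bases each, come from genes of complexes II, IV, I and V whose levels or log2 folds are given later. They read 5′ to 3′ on the gene's strand, with the NRF1 letters in capitals.
Sdha: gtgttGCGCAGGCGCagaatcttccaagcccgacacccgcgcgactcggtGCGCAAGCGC (chr13:74350241-74350300, minus strand)
Cox6a1: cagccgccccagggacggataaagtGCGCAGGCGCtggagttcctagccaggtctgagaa (chr5:115349041-115349100, minus strand)
Ndufb4: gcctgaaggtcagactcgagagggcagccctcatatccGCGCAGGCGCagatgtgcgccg (chr16:37654369-37654428, minus strand)
Atp5g2: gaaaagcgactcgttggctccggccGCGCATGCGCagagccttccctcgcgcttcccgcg (chr15:102671055-102671114, minus strand)
Atp5h: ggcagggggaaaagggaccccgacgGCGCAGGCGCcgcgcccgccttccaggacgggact (chr11:115420026-115420085, minus strand)
A match describes letters and not a bound site. Sdha, the flavoprotein subunit of complex II, has 2 matches in its stretch, and Cox6a1, Ndufb4, Atp5g2 and Atp5h have 1 each.

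The summed share of UMIs separated the populations far more in the mitochondrially encoded genes than in the nuclear ones. Mitochondrially encoded genes took 0.101% to 0.305% of UMIs in host microglia (median 0.191%, n = 8), and 1.38% to 3.80% in donor microglia (median 2.33%, n = 8). In the leptomeninges they took 1.38% to 1.69% in host cells (n = 4) and 0.898% to 1.43% in donor cells (n = 8). Host microglia therefore lay below every library of the other 3 populations, and host leptomeningeal cells reached into the lower end of the range of donor microglia. The nuclear genes took 1.16% to 1.31% in host microglia, 1.46% to 2.47% in donor microglia, 1.46% to 1.62% in host leptomeningeal cells and 1.57% to 1.75% in donor leptomeningeal cells. Host microglia again lay below all other libraries, and donor microglia spread the most. Per UMI of a nuclear subunit, host microglia held 0.167 ± 0.0654 UMIs of a mitochondrial one (SD, n = 8) and donor microglia 1.21 ± 0.235 (SD, n = 8). Shares and ratio cover only the member rows listed above, which lack several mitochondrially encoded subunits. The plot of shares by library shows all 28 values. In these bulk samples, a lower share of cells that express a gene and less RNA per cell cannot be told apart.

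**Figure D1:**
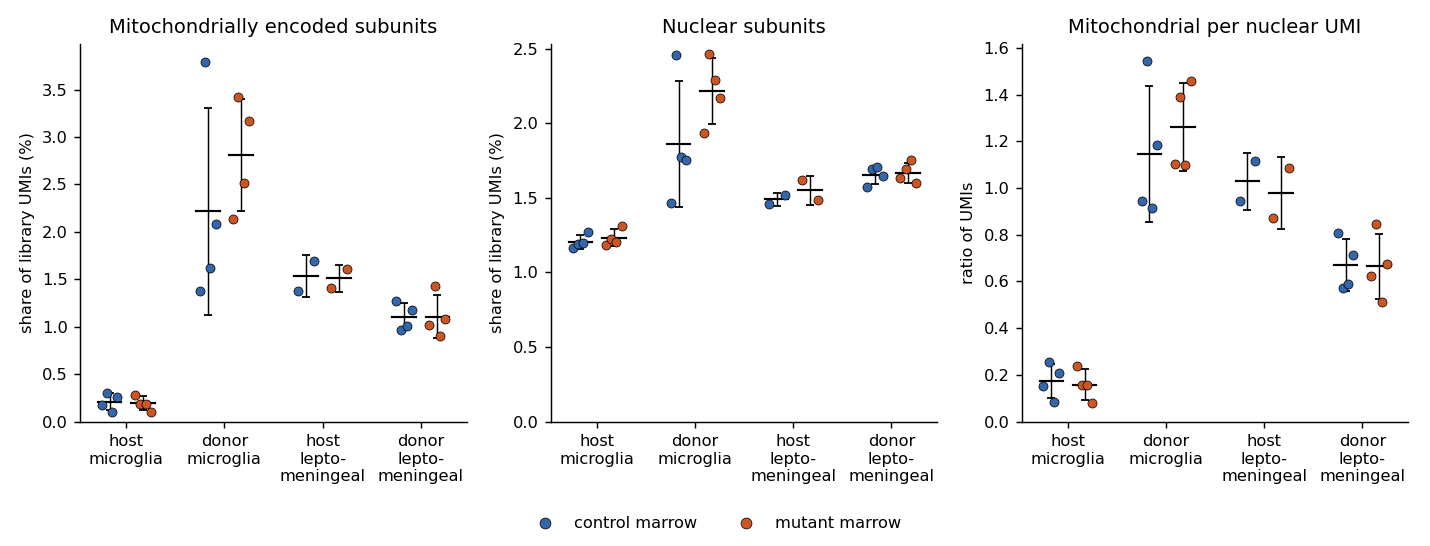
Share of library UMIs (%) from mitochondrially encoded and nuclear respiratory chain genes, and the ratio of both, for every library (points), with mean and SD (lines) by population and marrow genotype. Host microglia sit at 0.101% to 0.305% for the mitochondrial genes, below all other libraries, and at 1.16% to 1.31% for the nuclear genes.

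Among mitochondrially encoded genes, mt-Nd1 (chromosome M, 2751 to 3707, a core membrane subunit of complex I) stood at 3037, 8378, 3738 and 4417 CPM in control donor microglia and at 4100, 6870, 5152 and 6888 CPM in mutant donor microglia. In host microglia it stood at 349.4, 581, 191.9 and 443.3 CPM in control and 542.5, 386.5, 361.4 and 145.3 CPM in mutant chimeras. The 8 donor libraries lay above the 8 host libraries without overlap, and mt-Nd1 was 4.01 ± 0.27 higher in donor cells on the log2 scale (SE; adjusted p = 2.42e-11, edgeR's quasi-likelihood test with Benjamini-Hochberg adjustment over 12327 genes, mean over genotypes). mt-Nd4 of the same complex (chromosome M, 10167 to 11544) had 3782 to 11170 CPM in donor microglia (median 6213) and 171 to 849.7 CPM in host microglia (median 477.8), a difference of 3.94 ± 0.31. mt-Co1, the catalytic core of complex IV, was higher by 4.05 ± 0.24, and mt-Cytb of complex III by 3.53 ± 0.22. All 7 mitochondrial genes tested were called higher in donor than host microglia and did not overlap, with a median log2 fold of 3.94, where 33.1% of all genes tested were called higher, 12.5% were higher without overlap, and the median of all genes was 0.04. mt-Nd6, which lies on the opposite strand from the other mitochondrial members, had 5.92 to 38.4 CPM in donor and 0.344 to 1.97 CPM in host microglia, the latter at or under 3 UMIs in 6 of 8 libraries. Strand use in the authors' counting was not given in the sources used here, so counts of mt-Nd5 and mt-Nd6, which face each other at their 3′ ends, may not be separate.

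The mitochondrial ribosomal RNA rows, which are no members, moved alongside, at 0.197% to 0.915% of UMIs in donor and 0.00977% to 0.0429% in host microglia. Markers of other cells moved with the difference too. All 7 astrocyte markers were called higher in donor than host microglia, with 0.0870% to 0.403% of UMIs against 0.0148% to 0.0204%. All 7 neuron markers and all 3 choroid plexus markers were called higher as well, and 3 of 5 oligodendrocyte markers were (1 was lower), with 0.0712% to 0.443% against 0.0150% to 0.0192%. Of the defining astrocyte markers, Gfap was at 0 to 0.979 CPM and Aqp4 at 0 to 0.501 CPM in host microglia, against 6.94 to 46.2 CPM and 3.28 to 26.8 CPM in donor microglia. The nuclear RNAs Malat1 and Neat1, listed for RNA quality, took 0.0455% to 0.0900% in donor and 0.0127% to 0.0318% in host microglia. Their part in the result was not tested. The donor library with the fewest astrocyte transcripts, control library 1, had 0.0870% of them, 1.59% of choroid plexus transcripts and 1.38% of mitochondrially encoded UMIs, all above the host maxima.

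Nuclear subunits rose in the same comparison. In all, 68 of the 85 tested were called higher in donor than host microglia and 2 lower, against 33.1% and 27.3% of all genes tested, and their median log2 fold was 0.82. Without overlap between libraries, 34 were higher and 1 was lower, against 12.5% and 16.1% of all genes tested. The members differed by complex. Complex IV led with 15 of 16 higher and a median of 1.40, followed by complex III (5 of 8, median 0.89), complex V (14 of 17, median 0.85) and complex I (33 of 40 higher and 2 lower, median 0.73). Complex II had 1 of 4 higher and a median of 0.11.

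Within complex IV, Cox4i1, the regulatory subunit that starts assembly of the holoenzyme, had 914.3, 1768, 956.2 and 1037 CPM in control donor microglia and 1270, 1620, 1696 and 1449 CPM in mutant donor microglia. In host microglia it had 441.6 to 572.1 CPM (median 490.7, n = 8). Every donor library lay above every host library, and the difference was 1.60 ± 0.10 (adjusted p = 3.07e-19 by edgeR). Cox8a, a small membrane subunit, had 820.3 to 2165 CPM in donor microglia (median 1462) and 371.3 to 450.5 CPM in host microglia (median 420.3), a difference of 2.06 ± 0.11. Cox6a1 had 1227 to 2754 CPM (median 1979) against 712.9 to 825.9 CPM (median 759.8), a difference of 1.55 ± 0.11. These libraries did not overlap either. Cox5a and Cox5b, which bind the catalytic core from the matrix side, were higher by 1.25 ± 0.09 and 1.53 ± 0.09. Cox7a2l, which takes part in joining complexes III and IV into supercomplexes, was higher by 1.27 ± 0.09.

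In complex I, the accessory membrane-arm subunits Ndufb8, Ndufb2 and Ndufb11 were higher in donor microglia by 1.44 ± 0.09, 1.67 ± 0.12 and 1.19 ± 0.08. Ndufb8 had 198.3 to 321.1 CPM in donor and 87.39 to 126.1 CPM in host microglia, without overlap. Ndufb4, whose promoter stretch is shown above, had 23.0 to 49.2 CPM against 9.20 to 15.7 CPM, also without overlap, a difference of 1.47 ± 0.18. Of the core subunits of the matrix arm that carry redox centres, Ndufs1 had a log2 fold of -0.03 ± 0.15 (adjusted p = 0.875 by edgeR) and Ndufv1 of 0.20 ± 0.11 (adjusted p = 0.11 by edgeR), and neither was called. Ndufa9 fell by 0.70 ± 0.11, from 97.4 ± 11.9 to 53.5 ± 7.57 CPM (SD, n = 8 each), without overlap. Ndufab1, the mitochondrial acyl carrier protein, was higher by 0.89 ± 0.10.

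Complex II is built from nuclear subunits alone and also serves the citric acid cycle. Sdha had 77.2, 114, 80.4 and 72.8 CPM in control donor microglia and 73.0, 110, 116 and 105 CPM in mutant donor microglia, against 83.5 to 108 CPM in host microglia. The libraries overlapped, and the log2 fold was 0.07 ± 0.10 (adjusted p = 0.581 by edgeR). Sdhb, the iron-sulfur subunit, was called higher by 0.30 ± 0.08, while the membrane anchors Sdhc and Sdhd had log2 folds of -0.01 ± 0.10 and 0.15 ± 0.09 and were not called. Sdha and Cox6a1 both carry NRF1 letters in the stretches above, with log2 folds of 0.07 and 1.55.

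In complex III, Uqcr11 and Uqcr10, small accessory subunits, were higher in donor microglia by 1.31 ± 0.10 and 0.98 ± 0.09, and the Rieske iron-sulfur subunit Uqcrfs1 by 0.94 ± 0.10. The core subunit Uqcrc1 had a log2 fold of 0.04 ± 0.09 and was not called. In complex V, the genes Atp5g1, Atp5g2 and Atp5g3, which encode the same mature proton-carrying subunit c, were higher by 1.12 ± 0.10, 0.93 ± 0.14 and 0.85 ± 0.09. Of the catalytic head, Atp5b was higher by 0.41 ± 0.08, and Atp5a1 had a log2 fold of 0.02 ± 0.08 (adjusted p = 0.85 by edgeR). The plot of folds by complex sets these differences beside those of the other comparisons.

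**Figure D2:**
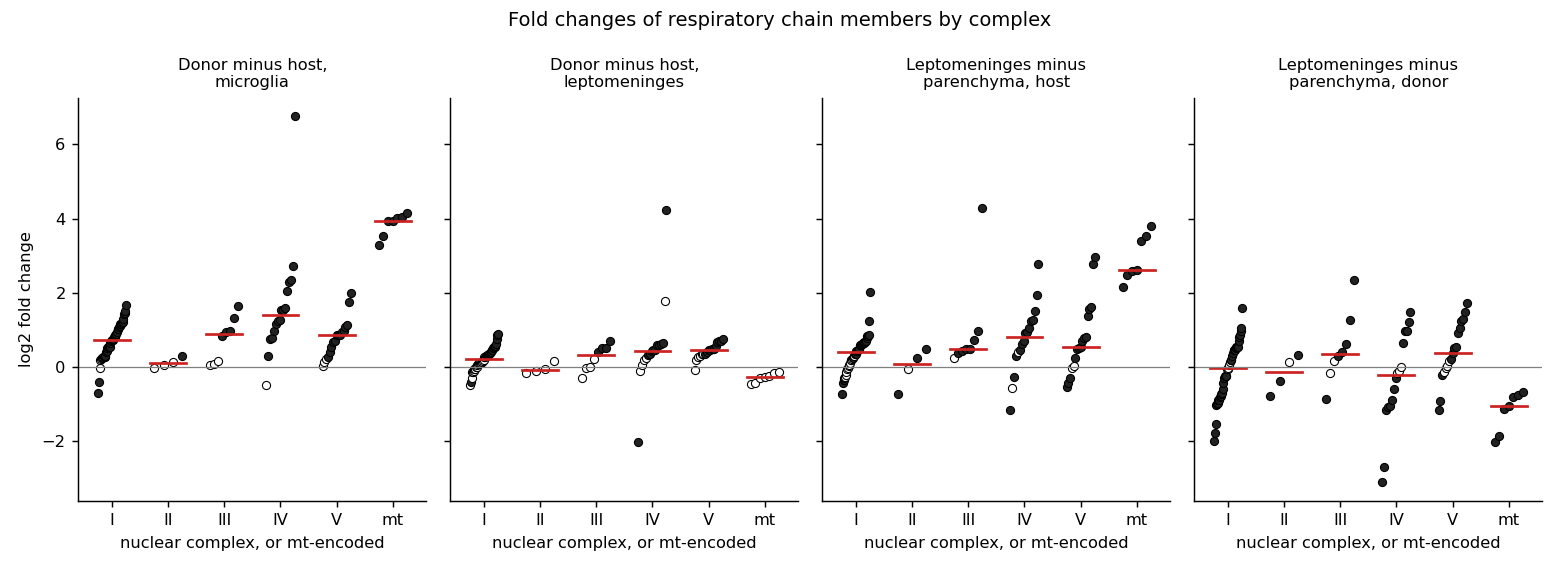
Log2 fold changes of the 85 nuclear (by complex) and 7 mitochondrially encoded (mt) members tested, in 4 comparisons averaged over genotypes; filled points were called at an adjusted p under 0.05 and red lines are medians. The mt medians are 3.94, -0.26, 2.61 and -1.06 from left to right, and complex IV has the highest nuclear median, 1.40, in the first panel.

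The 2 classes parted in the leptomeninges. Donor leptomeningeal cells (n = 8) had 42 of 85 nuclear members higher than host leptomeningeal cells (n = 4) and 2 lower, against 16.9% and 13.3% of all genes tested, with a median log2 fold of 0.33. Without overlap, 11 were higher and 4 lower, against 7.5% and 16% of all genes tested. Ndufv3 and Ndufa3, accessory subunits of complex I, were higher by 0.89 ± 0.11 and 0.86 ± 0.11, Atp5k and Atp5e of complex V by 0.77 ± 0.16 and 0.70 ± 0.10, and Cox6b1 by 0.59 ± 0.12. The lower ones were Ndufab1, by -0.40 ± 0.15, and Cox6a2, described below. The call of Ndufab1 was lost without control host leptomeningeal library 1, at -0.21 (adjusted p = 0.488 by edgeR, 0.0519 to 0.488 over the left-out libraries that ended it). None of the 7 mitochondrial genes was called by edgeR or DESeq2, and none had an unadjusted p under 0.05 by edgeR. All 7 log2 folds were below 0, with a median of -0.26, and 2 of the 7 were lower without overlap. mt-Nd1 had 3119, 2363, 2512 and 2917 CPM in control donor, 2414, 3391, 2043 and 2541 CPM in mutant donor, 3231 and 3898 CPM in control host and 3320 and 3384 CPM in mutant host leptomeningeal cells, which overlapped at 1 mutant donor library. Its log2 fold was -0.15 ± 0.29 (adjusted p = 0.758 by edgeR). Neutrophil markers were called higher in donor leptomeningeal cells for 10 of 10 genes, at 3.63% to 9.74% of UMIs against 0.184% to 0.584%, and their part in these differences was not tested.

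Among host cells, leptomeningeal macrophages exceeded microglia in both classes. All 7 mitochondrial genes were called higher, without overlap, with a median log2 fold of 2.61, against 31.1% of all genes tested called higher and 18.3% higher without overlap. mt-Nd1 had 3231 to 3898 CPM in the 4 leptomeningeal libraries against 145.3 to 581 CPM in the 8 microglial ones, a difference of 3.40 ± 0.29. mt-Nd2 was higher by 3.81 ± 0.30, mt-Nd4 by 3.52 ± 0.33 and mt-Co1 by 2.49 ± 0.25. The shares of marker lists went in both directions here. The summed share of astrocyte markers was lower in host leptomeningeal cells (0.0108% to 0.0145%) than in host microglia (0.0148% to 0.0204%), although 6 of 7 of these markers were called higher. Oligodendrocyte markers took 0.0199% to 0.0269% against 0.0150% to 0.0192%, and the nuclear RNAs Malat1 and Neat1 took 0.109% to 0.145% against 0.0127% to 0.0318%. Neutrophil markers took 0.184% to 0.584% against 0.0162% to 0.114%. Neuron markers took 0.00210% to 0.00658% against 0.000872% to 0.00235%, and fibroblast and mural markers 0.00452% to 0.00888% against at most 0.000305%. Choroid plexus markers overlapped, at 0.001025% to 0.0105% against 0.000343% to 0.0173%. The part of any of these lists in the result was not tested.

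Of the nuclear members, 56 of 85 were called higher in host leptomeningeal cells than in host microglia and 10 lower, where 31.1% and 25.7% of all genes tested were called higher and lower. Without overlap, 31 were higher and 10 lower, against 18.3% and 24% of all genes tested. Uqcrb (chromosome 13, 66900617 to 66905378), a subunit near the quinone site of complex III, had 65.0 and 78.6 CPM in control and 104 and 96.9 CPM in mutant host leptomeningeal cells. In host microglia it had 3.39, 7.56, 4.90 and 5.17 CPM in control and 6.03, 4.01, 5.26 and 1.83 CPM in mutant chimeras. The difference was 4.30 ± 0.18 (adjusted p = 6.74e-25 by edgeR). Atp5mpl and Atp5md, small membrane proteins of ATP synthase, were higher by 2.95 ± 0.18 and 2.78 ± 0.24, Cox7b by 1.95 ± 0.13, Atp5h (the d subunit of the peripheral stalk) by 1.63 ± 0.11 and Cox4i1 by 1.27 ± 0.11. The lower members included Sdhc (-0.73 ± 0.13), Ndufab1 (-0.71 ± 0.14), Atp5g3 (-0.53 ± 0.11) and Ndufv3 (-0.43 ± 0.11). Several weaker calls, among them Ndufs3, Ndufb6, Cox5a and Atp5g1, were lost when single libraries were left out. Many of these small genes have processed copies elsewhere in the genome, and the treatment of reads shared with a copy was not given in the sources used here, so the levels of such genes are uncertain.

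Among donor cells the comparison of compartments split the nuclear members, with 37 of 85 called higher in the leptomeninges and 32 lower, where the shares of all genes tested were 30.5% and 31.6%. Both directions thus held many members, and the median log2 fold was 0.07. On plain library totals, the summed nuclear share was 1.66% ± 0.06% in donor leptomeningeal cells and 2.04% ± 0.37% in donor microglia (SD, n = 8 each). Without overlap, 12 were higher and 21 lower, against 10.3% and 15.4% of all genes tested. Single members were far apart in both directions. Ndufab1 had 23.2 to 32.5 CPM in donor leptomeningeal cells and 105.4 to 170.3 CPM in donor microglia (n = 8 each) and fell by 2.00 ± 0.11 in the leptomeninges (adjusted p = 9.21e-20 by edgeR). Ndufb8 fell by 1.53 ± 0.09, Atp5g1 by 1.14 ± 0.10, Cox5a by 1.07 ± 0.09 and Cox6a1 by 1.06 ± 0.11, all without overlap. On the other side, Uqcrb rose by 2.34 ± 0.17, from 9.87 to 24.6 CPM in donor microglia to 45.3 to 79.1 CPM in donor leptomeningeal cells. Cox7b rose by 1.497 ± 0.112, Atp5h by 1.48 ± 0.10, Atp5mpl by 1.31 ± 0.15 and Cox6b1 by 1.22 ± 0.10, again without overlap. Members of 1 complex thus moved in opposite directions, such as Cox7b and Cox6a1 of complex IV or Atp5h and Atp5g1 of complex V.

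All 7 mitochondrial genes were called lower in donor leptomeningeal cells than in donor microglia, with a median log2 fold of -1.06, against 31.6% of all genes tested called lower. mt-Co1 had 550.4 to 908.9 CPM in the leptomeninges and 1841 to 4622 CPM in the parenchyma and fell by 1.84 ± 0.21, without overlap. mt-Nd1 fell by 0.76 ± 0.24 and overlapped between the groups. mt-Nd4 fell by 0.68 ± 0.28 (adjusted p = 0.0387 by edgeR), a call that was lost without control donor microglia library 2 (-0.49, adjusted p = 0.115) and without each of 7 other single libraries (adjusted p = 0.0507 to 0.0732). Astrocyte markers took 0.00809% to 0.0130% of UMIs in donor leptomeningeal cells against 0.0870% to 0.403% in donor microglia, choroid plexus markers 0.000429% to 0.0378% against 1.59% to 3.33%, and neutrophil markers 3.63% to 9.74% against 0.0948% to 1.03%. Their part in the result was not tested.

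**Figure D3:**
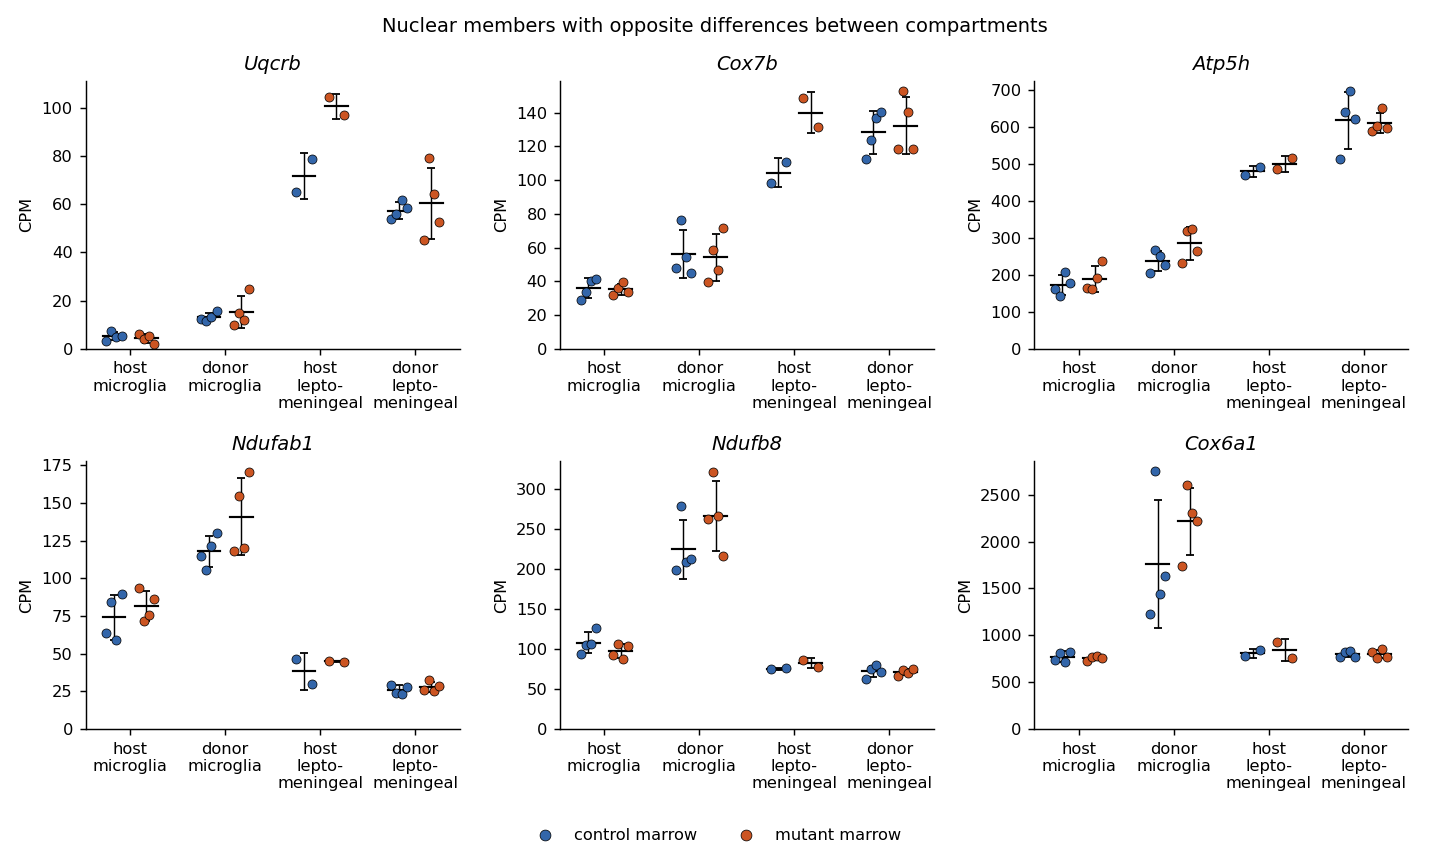
CPM of 6 nuclear members in every library (points), with mean and SD (lines), by population and marrow genotype. Uqcrb, Cox7b and Atp5h are higher in both leptomeningeal populations than in either microglial one, while Ndufab1 is lower there and Ndufb8 was called lower there only among donor cells (host cells -0.20 ± 0.12, adjusted p = 0.144 by edgeR), and Cox6a1 is high in donor microglia, at 1227 to 2754 CPM.

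The gap between donor and host cells differed between the compartments. In the test of that difference (donor minus host in the leptomeninges, less donor minus host in microglia), 46 of 85 nuclear members were called lower and 4 higher, against 23.2% and 19.1% of all genes tested, and all 7 mitochondrial genes were called lower, with a median of -4.18. This comparison shares its libraries with those above. mt-Nd1 differed by -4.16 ± 0.38 and mt-Nd4 by -4.20 ± 0.43. Of the nuclear members, Cox6b2 (-2.12 ± 0.24), Uqcrb (-1.96 ± 0.28), Ndufb2 (-1.67 ± 0.19), Atp5mpl (-1.65 ± 0.24) and Cox8a (-1.58 ± 0.17) were among those called lower. Among those called higher were Ndufa3 (0.62 ± 0.14), Atp5k (0.54 ± 0.21) and Ndufa9 (0.42 ± 0.16). The calls of Atp5k and Ndufa9 were lost with DESeq2's size factors, at 0.46 and 0.34. Astrocyte and neuron markers were called lower in the same test for 7 of 7 genes each, and their part was not tested. Complex II had no called member among Sdha (-0.16 ± 0.15), Sdhb (-0.13 ± 0.13), Sdhc (-0.04 ± 0.17) and Sdhd (-0.31 ± 0.15).

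Several complex IV subunits have a second gene used mainly in muscle or testis, and these restricted isoforms were measured as well. Cox6a2, the heart and skeletal muscle form of subunit 6a, had 37.3, 33.8, 40.2 and 36.5 CPM in control and 39.4, 40.6, 46.0 and 47.6 CPM in mutant host microglia. It had 15.9 to 41.0 CPM in donor microglia, 0.978 to 4.88 CPM in donor leptomeningeal cells, and 11.9, 37.6, 21.1 and 2.71 CPM in the 4 host leptomeningeal libraries. By median, the order from high to low was host microglia, donor microglia, host leptomeningeal cells and donor leptomeningeal cells. Each neighbour in this order overlapped the next, while host microglia and donor leptomeningeal cells were well apart. Donor minus host was -2.01 ± 0.43 in the leptomeninges (adjusted p = 0.000539 by edgeR) and -0.48 ± 0.26 in microglia (adjusted p = 0.106 by edgeR). Leptomeninges minus parenchyma was -2.68 ± 0.35 in donor cells and -1.16 ± 0.33 in host cells, and the latter call was lost without mutant host leptomeningeal library 2 (-0.65, adjusted p = 0.0637 by edgeR). Cox6b2, the testis form of subunit 6b, had 3.44 to 7.33 CPM in host microglia and 18.8 to 37.3 CPM in donor microglia, and was higher in donor microglia by 2.72 ± 0.18. In the leptomeninges it had 32.6 to 51.4 CPM in donor and 26.1 to 47.5 CPM in host cells.

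Cox8b, a muscle and brown fat form of subunit 8, was highest in donor microglia by CPM, with 5, 9, 8 and 8 UMIs in the control and 7, 17, 9 and 7 UMIs in the mutant libraries, or 6.91 to 18.1 CPM. Host microglia had 1 UMI in 1 of 8 libraries, host leptomeningeal cells had 0 in 4 of 4, and donor leptomeningeal cells, which were sequenced more deeply, had 4, 1, 1 and 5 UMIs in the control and 4, 0, 0 and 7 UMIs in the mutant libraries, or 0.000 to 2.44 CPM. Since the host cells are at or under the 3-UMI limit, no fold is given. Choroid plexus markers, given above, were also highest in donor microglia, and their part was not tested. Cox7a1, the muscle form of subunit 7a, had 0 to 11 UMIs in donor microglia (up to 10.9 CPM) and 0 to 6 UMIs in host microglia (up to 2.44 CPM). In the leptomeninges it had 3 to 13 UMIs in donor and 0 to 5 UMIs in host cells. Every population had libraries at or under the 3-UMI limit. Cox4i2 and Ndufa4l2 were not analysed here.

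**Figure D4:**
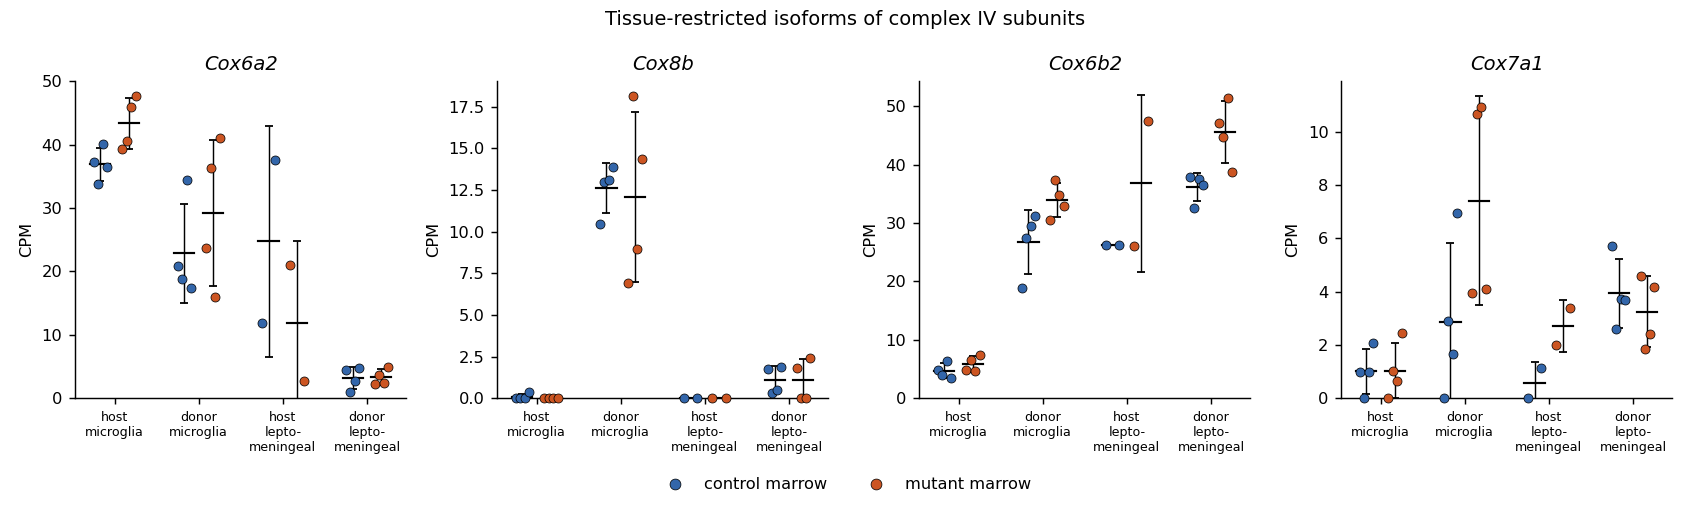
CPM of tissue-restricted complex IV isoforms in every library (points), with mean and SD (lines), by population and marrow genotype. Cox6a2 is at 33.8 to 47.6 CPM in host microglia and at most 4.88 CPM in donor leptomeningeal cells, and Cox8b reaches 6.91 to 18.1 CPM in donor microglia and at most 2.44 CPM elsewhere.

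Whether the mutant marrow changed the respiratory chain was asked in each population. In donor microglia, 0 of 85 nuclear and 0 of 7 mitochondrial members were called by edgeR, where 0.0892% of all genes tested were called. DESeq2's Wald test on the same libraries called 4 nuclear members, namely Cox7c, Cox6b1, Sdhc and Ndufa2, among 81 genes. Of the nuclear members, 77 had a log2 fold above 0 and 8 below, with a median of 0.25, and 26 had an unadjusted p under 0.05, as 1253 of all 12327 genes did. All 7 mitochondrial folds were above 0 (0.19 to 0.54), and none had an unadjusted p under 0.05. Cox7c, a small subunit of complex IV, came closest, with 68.9, 168, 105 and 86.7 CPM in control and 194, 177, 193 and 166 CPM in mutant donor microglia. The groups overlapped only at control library 2, and the log2 fold was 0.76 ± 0.17 (adjusted p = 0.0596 by edgeR). Cox6b1 followed with 0.62 ± 0.15 (adjusted p = 0.097 by edgeR) and Sdhc with 0.65 ± 0.16 (adjusted p = 0.117 by edgeR). Sdhc, Cox6b1 and Ndufa3 were the 3 nuclear members whose mutant libraries all lay above the control ones, where 1.46% of all genes tested did so.

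These counts changed with control donor microglia library 2, which stood above the other 3 control libraries in both classes. Mitochondrially encoded genes took 1.38%, 3.80%, 1.62% and 2.08% of UMIs in the control libraries and 2.13%, 3.43%, 2.52% and 3.17% in the mutant ones. Without library 2, edgeR called 22 nuclear members and 1 mitochondrial member, mt-Cytb (0.94 ± 0.26, adjusted p = 0.0451), all higher in mutant cells, together with 544 of 12232 genes tested. Among the 22 were Ndufb9 (1.11 ± 0.14), Cox7c (1.11 ± 0.17), Cox4i1 (0.69 ± 0.11) and Cox8a (0.65 ± 0.13), and the nuclear median was 0.40.

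Astrocyte markers took 0.0870%, 0.403%, 0.113% and 0.147% of UMIs in the control libraries and 0.225%, 0.301%, 0.380% and 0.244% in the mutant libraries of donor microglia. Oligodendrocyte markers took 0.0751%, 0.398%, 0.0712% and 0.132% against 0.226%, 0.284%, 0.443% and 0.188%. Choroid plexus markers took 1.59%, 2.57%, 3.05% and 1.97% against 2.06%, 2.83%, 2.34% and 3.33%. Control library 2, with the most mitochondrially encoded UMIs, also had the most astrocyte transcripts, and the other 3 control libraries had the fewest. Among mutant libraries, library 3 had the most astrocyte transcripts (0.380%) but 2.52% of mitochondrially encoded UMIs, in a mutant range of 2.13% to 3.43%. With a covariate for astrocyte and neuron transcripts in the fit, the median log2 fold of the genotype was 0.09 over nuclear and -0.18 over mitochondrial members. Whether transcripts of other cells caused the genotype folds was not tested. The plot of marker shares shows the 8 libraries.

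**Figure D5:**
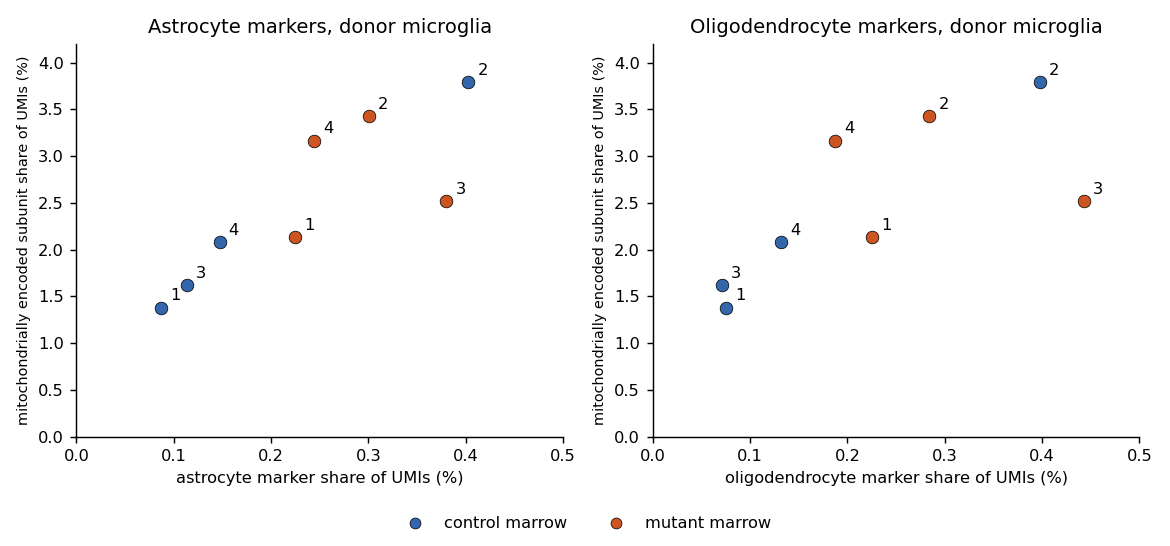
Share of UMIs (%) from mitochondrially encoded respiratory chain genes against the share from astrocyte markers (left) and oligodendrocyte markers (right) in the 8 donor microglia libraries, numbered by replicate within each genotype. Control libraries 1, 3 and 4 sit at 1.38% to 2.08% with astrocyte shares of 0.0870% to 0.147%, and control library 2 at 3.80% with 0.403%. The mutant libraries sit at 2.13% to 3.43% with astrocyte shares of 0.225% to 0.380%.

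In host microglia, donor leptomeningeal cells and host leptomeningeal cells, edgeR and DESeq2 also called 0 nuclear and 0 mitochondrial members, against 0.0649%, 0.0487% and 0% of all genes called by edgeR. Unadjusted p-values under 0.05 were found for 2, 1 and 4 nuclear members and for 0 mitochondrial ones. The nuclear medians were 0.06, 0.01 and 0.09. mt-Nd1 had log2 folds of -0.10 ± 0.34, -0.06 ± 0.34 and -0.04 ± 0.48, and mt-Nd4 of -0.19 ± 0.40, 0.03 ± 0.39 and -0.01 ± 0.55. The test of whether the genotype effect differed between donor and host microglia called 0 nuclear and 0 mitochondrial members, where it called 0.0324% of all genes.

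Other genes of the pathway and of related processes were counted in donor against host microglia, where 33.1% of all genes tested were called higher and 27.3% lower. Of the genes listed for electron transfer outside the symbol patterns (Cyc1, Cycs, Coq7, Coq9, Etfa, Etfb and Etfdh), 4 of 7 were called higher. The assembly factors had 12 of 41 higher and 6 lower, with a median of 0.02. Of the mitochondrial ribosome, which translates the mitochondrial members, 31 of 79 were higher and 8 lower, and of the proteins that copy, transcribe and process mitochondrial DNA and RNA, 2 of 14 were higher and 3 lower. The transcriptional regulators of these genes had 1 of 8 higher and 5 lower. Citric acid cycle enzymes had 6 of 16 higher and 2 lower, glycolytic enzymes 9 of 15 higher and 2 lower, and antioxidant enzymes 6 of 8 higher. Cytosolic ribosomal proteins had 73 of 78 higher and 2 lower. In host leptomeningeal cells against host microglia, where 31.1% of all genes tested were called higher and 25.7% lower, 75 of 78 of these ribosomal genes were called higher, 21 of 79 mitochondrial ribosomal genes were higher and 15 lower, and regulators had 1 of 8 higher and 5 lower.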

How the data were processed

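Expression was measured by MARS-seq in 28 libraries of sorted mouse brain macrophages, in 8 groups given by the labels. Per the file headers, the authors deposited raw, normalized and rlog columns. The raw columns, UMI counts made on mm10 per the submitters' processing notes, were analysed. The deposited normalized columns (signal, counts over a size factor) and the deposited rlog columns (log2 values) were left aside. The sources used here do not give the aligner or counter. Listed genes had at least 6 UMIs in their best library.

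Shares and CPM were computed from the counts over plain library totals, without TMM scaling. Tests used edgeR 4.0.16 in R 4.3.3 (filterByExpr, TMM scaling, robust quasi-likelihood, 1 mean per group over all libraries, Benjamini-Hochberg adjustment at 0.05), tested on simulated counts with 200 changed genes. Named genes were a fixed list of subunits and isoforms, all called mitochondrial members and, per comparison, up to 4 called nuclear members per complex and direction with a mean of at least 10 CPM. Genes named for single libraries or left-out libraries were chosen after their values were seen. 1 called nuclear member is counted but not reported here by name. Members and lists were chosen with earlier results of these data known.

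Alternatives were DESeq2's size factors, DESeq2's Wald test (1.42.0), no low-count filter, replicate numbers as a block, an astrocyte and neuron covariate, each library left out in turn and, chosen after seeing the data, mitochondrially encoded genes left out of the fit. Positions come from GENCODE M21, which held 91 of the 96 members. Replicate libraries differed by more than sampling noise (lowest chi-square per degree of freedom 1.90 over 38 pairs), and each was counted. That excess may be technical, so it does not show that libraries came from separate animals.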

Additional observations from a re-analysis of the deposited data

Results flagged for a closer look

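In groups of 4 libraries, a library stood apart where its gap to the nearest other, over the group's range, passed Dixon's critical value. This was so in 9 of 186 groups of values, and chance gives about 1 in 20. Control donor microglia library 2 was the highest of its group for the complex III share (0.182% of UMIs, next 0.131%), for mt-Nd6 (26 CPM, next 11.5), Cox4i1 (1768 CPM, next 1037), Ndufb8 (278.7 CPM, next 211.6) and Uqcr11 (511.3 CPM, next 286). Mutant host microglia library 4 was the highest for the complex IV share (0.287%, next 0.268%) and for Cox4i1 (572.1 CPM, next 498.7). Control host microglia library 4 was the highest for the complex II share (0.0546%, next 0.0499%) and for Cox8b, at 0.344 CPM, which is 1 UMI.

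The donor minus host difference was not the same in the leptomeninges and in microglia, by a test of the difference itself. Of the 85 nuclear members tested, 46 were called lower in the leptomeningeal than in the microglial difference and 4 higher. All 7 mitochondrial members tested were called lower. Of all genes tested, 23.2% were called lower and 19.1% higher. Among genes given by library, the values were -4.34 for mt-Co1, -4.20 for mt-Nd4, -4.18 for mt-Nd6, -4.16 for mt-Nd1 and -3.67 for mt-Cytb. In complex IV they were -2.12 for Cox6b2, -1.58 for Cox8a, -1.52 for Cox6a2, -1.35 for Cox6a1, -1.27 for Cox4i1, -0.92 for Cox7c and -0.45 for Cox7b. In complexes I and III they were -1.29 for Ndufab1, -1.33 for Ndufb8, -1.34 for Uqcr11 and -1.96 for Uqcrb. In complex V they were -1.65 for Atp5mpl and -0.39 for Atp5g3.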

How the results depend on the processing

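The counts of mitochondrial members called, 7 higher in donor than host microglia, 7 higher in host leptomeningeal cells than host microglia and 7 lower in the difference of differences, were the same under every alternative run. The 7 lower in donor leptomeningeal cells became 6 to 7 with a library left out. The nuclear counts, with a library left out, were 60 to 71 higher between donor and host microglia, 29 to 43 higher between donor and host leptomeningeal cells (against 42, lowest without mutant host leptomeningeal 2), 46 to 57 higher between host compartments and 36 to 48 lower in the difference of differences. With every library in the fit, the shares of all genes tested called so were 33.1%, 16.9%, 31.1% and 23.2%, in the same order.

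Counts that moved by more than 1.5 times were small ones, and the cause was not tested. Nuclear members higher in the difference of differences were 2 with DESeq2's size factors, 2 with DESeq2's Wald test and 2 with the replicate block, against 4. With a library left out they were 2 to 7, moved by control donor microglia 2, mutant donor microglia 1, mutant host microglia 4, control donor leptomeningeal 3 and mutant donor leptomeningeal 4. In mutant against control donor microglia, nuclear members higher were 2 with no low-count filter, 4 with DESeq2's Wald test and 1 with the mitochondrially encoded genes left out, against 0. With a library left out they were 0 to 22 and mitochondrial members higher 0 to 1, and the difference of genotype effects gave 0 to 7 nuclear members higher, all through control donor microglia 2. Nuclear members lower in donor than host leptomeningeal cells were 1 with no filter, against 2. With a library left out they were 0 to 3, moved by both mutant host libraries, control host 1, control donor 2, and mutant donor 1 and 3. Nuclear members lower in host leptomeningeal cells than host microglia were 6 with DESeq2's Wald test, against 10. With a library left out they were 5 to 10, moved by mutant host leptomeningeal 2, control host microglia 2 and mutant host microglia 4.

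Pairing by replicate number was looked for in each library's deviations from its group mean over genes, and none was seen. Same-numbered libraries of different groups had correlations of -0.184 to 0.125, and in 0 of 15 pairs of groups did every library correlate best with its own number. This check cannot exclude that same-numbered libraries came from the same mouse. Genotype folds near 0 changed sign in some settings. With the replicate block, mt-Nd4 in donor leptomeningeal cells was -0.015. With the astrocyte and neuron covariate, mt-Nd1 and mt-Nd4 in donor microglia were -0.25 and -0.27. With a library left out, mt-Nd1 ran from -0.364 to 0.149 in host microglia, from -0.182 to 0.054 in donor leptomeningeal cells and from -0.195 to 0.105 in host leptomeningeal cells. mt-Nd4 ran from -0.52 to 0.102, from -0.105 to 0.129 and from -0.197 to 0.179. Single folds were followed for members named because a comparison called them, in that comparison, and for mt-Nd1 and mt-Nd4 between genotypes. Of these, 701 values with other settings kept call and direction, 17 lost the call and 3 changed sign, and with a library left out 2371, 77 and 12 did so. Other named genes that were not called are not in this tally, so gained calls could hardly appear in it. Host leptomeningeal comparisons rest on 2 libraries per genotype, and genes under about 6.26 CPM are not resolved in the shallowest library.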
